A study of Mus musculus with 8 samples.

Results

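The 7 snoRNA host genes Gas5, Snhg1, Snhg3, Snhg5, Snhg6, Snhg8 and Snhg12 were chosen by name from the 35325 coding and long noncoding genes of the GENCODE M21 annotation (mm10). Their members are the CAGE tag clusters on the strand of the gene whose dominant TSS, the single most used start position, lay between 500 bp upstream of the annotated gene start and the gene end. This rule found 20 of the 32857 clusters of the wild-type line, 20 of 33005 in the first mutant clone and 20 of 32870 in the second. CAGE-seq reads the capped 5′ ends of RNA, here nuclear RNA of mouse embryonic stem cells grown with LIF and foetal calf serum on gelatin. The lines were wild-type E14 (3 libraries) and E14 cells with both PWWP2A and PWWP2B knocked out, as clone A1 (2 libraries) and clone C7 (3 libraries). Each clone is a single cell line, so a difference of a clone and an effect of the knockout cannot be told apart in 1 clone. PWWP2A and PWWP2B are chromatin readers of H3K36me3, and the study asked where transcription starts without them. The libraries of a line were merged before clusters were called, so each line gave 1 set of positions with no replicate error, and no p-value was calculated. The deposited clusters carry a score of 0 throughout, so they show where starts were called and how far they spread, not how much RNA was made.

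Small nucleolar RNAs (snoRNAs) guide the chemical modification of ribosomal RNA. C/D box snoRNAs direct ribose methylation, H/ACA box snoRNAs direct pseudouridylation, and in mammals most of them are cut from the introns of a longer host transcript after splicing. Many host genes, coding or not, belong to the terminal oligopyrimidine (TOP) class together with the ribosomal protein genes. Transcripts of that class start at a C followed by a run of C and T, and their spliced noncoding members are short-lived in the cytoplasm, while the intronic snoRNAs persist.

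The bases around the main start of each host gene are shown because they carry the feature that most of these genes share. With no signal to rank clusters by, the main start is here the widest cluster near an annotated transcript start. Each stretch below reads 5′ to 3′ along the gene, with the unbroken run of pyrimidines from the dominant TSS in capitals and 15 bases before it, except for Snhg6, where the sequence begins at the TSS. The sequences are those of RefSeq promoter windows (GRCm38.p6, the assembly of mm10) and GENCODE transcripts.
Gas5, chr1:161035151-161035180, plus strand: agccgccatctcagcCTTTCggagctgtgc
Snhg1, chr19:8723472-8723501, plus strand: gttgttcttgtcggcCTCatttttccttgt
Snhg3, chr4:132353619-132353648, minus strand: tcggcgcgggtctgtCTCTCTaggcgtcgc
Snhg5, chr9:88522874-88522903, minus strand: tgaaccgggctcgttCTTTTacgacggagc
Snhg6, chr1:9944089-9944118, minus strand: CTTTCTCggcagcgccgtagagcgcgagca
Snhg8, chr3:123508322-123508351, minus strand: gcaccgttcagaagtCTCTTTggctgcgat
Snhg12, chr4:132308661-132308690, plus strand: caggccgttctcagtCCTTTCTCgcttcat

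All 7 main starts fell on a C, in all 3 lines. The run of pyrimidines was 5 bases long in Gas5 and Snhg5, 6 in Snhg3 and Snhg8, 7 in Snhg6 and 8 in Snhg12, and it stopped after 3 bases in Snhg1, where an A follows. A C with at least 4 more pyrimidines was therefore present in 6 of the 7 genes, against 3.87% of all genes with a readable start cluster in E14, 3.94% in A1 and 3.83% in C7. A C alone was at the dominant TSS of 8.24%, 8.73% and 8.32% of genes. These counts place the start cluster within 500 bp of any annotated transcript start, a rule chosen after the data were seen, because a window around the gene start leaves out the widest Gas5 cluster (35 bp, against 23 bp for the upstream one). Which of the Gas5 clusters holds more signal cannot be read from the cluster positions used here, so the counts that include Gas5 rest on that choice. With the window set around the gene start, as first planned, the Gas5 cluster taken is the upstream one described below, and the counts were 6 of 7 genes with a C and 5 of 7 with the run in each line, beside 3.77%, 3.86% and 3.81% of all genes with the run.

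The stretch from 40 to 20 bases upstream of the same starts is shown for the 6 genes where it could be read, with the first TATA in capitals.
Gas5, chr1:161035126-161035146, plus strand: cacgaagacctTATAtactcg
Snhg1, chr19:8723447-8723467, plus strand: gcgagatgctattTATAggcc
Snhg3, chr4:132353653-132353673, minus strand: tacttaaggTATAaatatggc
Snhg5, chr9:88522908-88522928, minus strand: aaggagacTATAaaaggagct
Snhg8, chr3:123508356-123508376, minus strand: tcacccgggcTATAaaagcgt
Snhg12, chr4:132308636-132308656, plus strand: ggcgcgagagTATAtaatcct

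The letters TATA, searched on the strand of the gene with the first base between 36 and 24 bases upstream of the dominant TSS, were present in 6 of 6 genes. They were present in 3.76%, 3.8% and 3.75% of all readable genes in E14, A1 and C7. The first T lay 27 bases upstream of the TSS in Snhg1, 29 in Gas5, 30 in Snhg8 and Snhg12, 31 in Snhg3 and 32 in Snhg5. The longer motif TATAAA was found in Snhg3, Snhg5 and Snhg8 but not in the other 3, and in 1.78% of all genes in E14. A run of pyrimidines at the start and a TATA upstream of it occurred together in 5 of the 6 genes, all but Snhg1. Over all genes that could be read for both, this was so for 35 of 10162 (0.344%) in E14. With the window around the gene start TATA was present in 5 of 6 host genes, beside 3.88% of genes in E14, 3.95% in A1 and 3.92% in C7. By that window the run and TATA occurred together in 4 of 6 host genes, beside 0.375%, 0.396% and 0.397% of genes. A match to these letters describes the sequence and does not show that a factor binds there.

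The starts of the host genes were sharp. CAGE clusters have a whole width, from the first to the last start position, and an interquantile width, the stretch between the positions where the accumulated signal passes the quantiles 0.1 and 0.9. The interquantile width of the main start was 2 to 4 bp in all 7 genes and all 3 lines, with a median of 3 bp. Over all genes with a start cluster the median was 31 bp in E14 (quartiles 17 and 44 bp) and 32 bp in each clone. A width of up to 4 bp was found for 8.36% of genes in E14 and 7.98% in each of A1 and C7. This cutoff was not part of the plan and equals the largest width of the 7 main starts.

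Gas5, on chromosome 1 from 161034422 to 161038539, is a growth arrest-associated noncoding RNA. The gene carries 9 annotated snoRNA loci, among them Mir5117, a snoRNA by annotation with a microRNA name. Its main start cluster ran from 161035138 to 161035172, a whole width of 35 bp, and had an interquantile width of 3 bp and a dominant TSS at 161035166 in E14, A1 and C7. That TSS was 744 bp downstream of the annotated gene start and coincided with an annotated transcript start.

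Snhg1, on chromosome 19 from 8723475 to 8726443, holds 8 snoRNA loci including Snord22. Its start cluster from 8723470 to 8723508 had a whole width of 39 bp, an interquantile width of 2 bp and a dominant TSS at 8723487 in all 3 lines. Although starts were called across 39 bp, the stretch between the quantiles was therefore a pair of adjacent positions.

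Snhg3, on the minus strand of chromosome 4 from 132348014 to 132353686, is the host of the H/ACA box snoRNAs Snora73a and Snora73b. It had the widest start cluster of the 7, from 132353590 to 132353708 (119 bp), with its dominant TSS at 132353633 in every line. The interquantile width was 3 bp in E14 and 4 bp in A1 and C7, or 2.52% and 3.36% of the whole. This 1 bp, on the downstream side of the TSS, was the only difference between lines in the shape of any of the 7 main starts. The coding gene Rcc1, a regulator of chromosome condensation, overlaps Snhg3 on the same strand, and all 3 clusters of Snhg3 also met the rule for Rcc1, so these starts cannot be assigned to 1 of the 2 genes.

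Snhg5, on the minus strand of chromosome 9 from 88521050 to 88522929, hosts the C/D box snoRNAs Snord50a and Snord50b. Its cluster from 88522881 to 88522895 (15 bp) had an interquantile width of 4 bp and a dominant TSS at 88522888 in each line. Snhg6, the host of Snord87 on the minus strand of chromosome 1 from 9941959 to 9944118, had a cluster from 9944088 to 9944188. Its whole width of 101 bp held an interquantile region of 3 bp (2.97%), with the dominant TSS at 9944118, the first annotated base of the gene. Snhg3 and Snhg6 thus had the widest whole clusters of the 7 genes and interquantile regions as narrow as those of the others.

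Snhg8, on the minus strand of chromosome 3 from 123507552 to 123508404, hosts Snora24. Its cluster from 123508330 to 123508341 (12 bp) had an interquantile width of 2 bp and a dominant TSS at 123508336, 3 bp before the nearest annotated transcript start. Snhg12, on the plus strand of chromosome 4 from 132308623 to 132311024, hosts Snora16a, Snora44, Snora61 and Snord99. Its cluster from 132308676 to 132308680 was the narrowest, 5 bp in all with 2 bp between the quantiles, and its dominant TSS was at 132308676. Both genes had these values in all 3 lines.

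**Figure D1:**
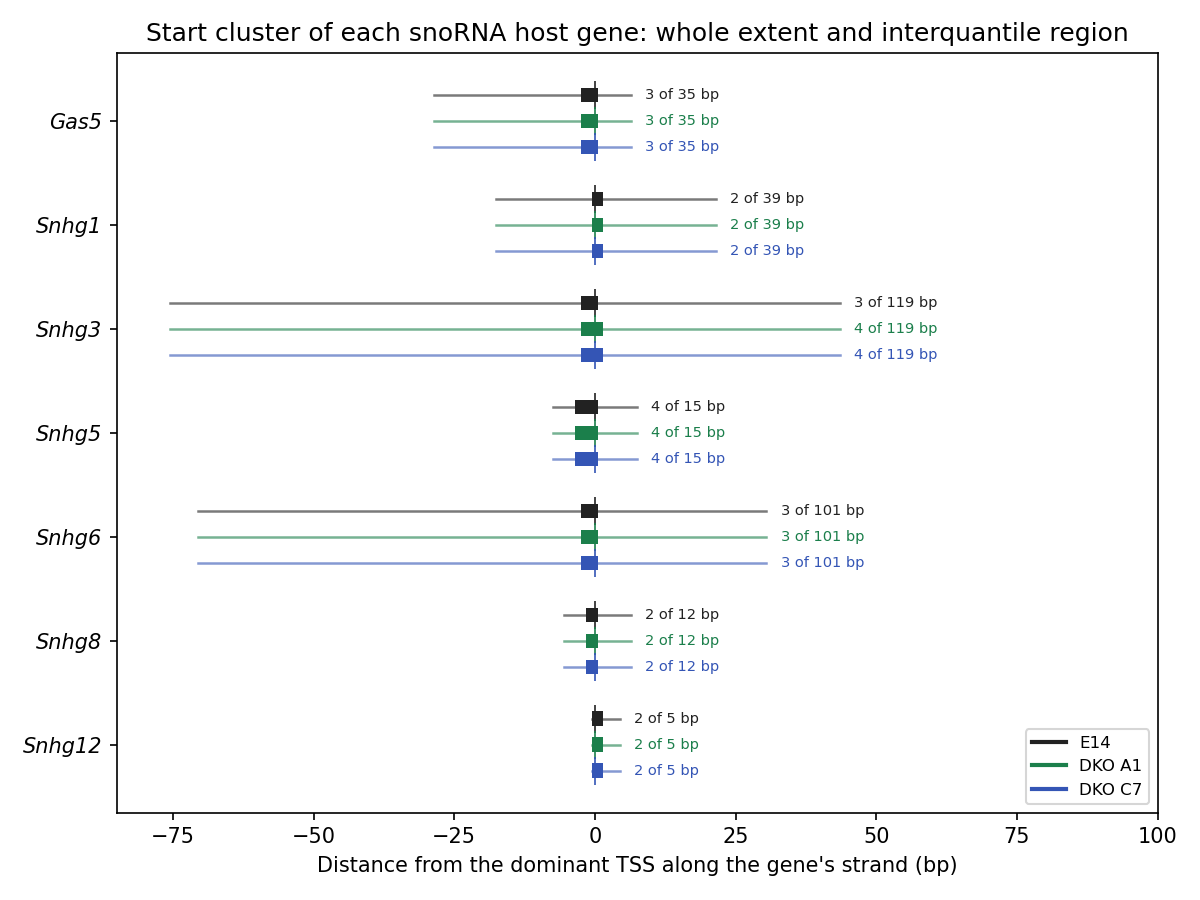
Start cluster of each host gene in E14, DKO A1 and DKO C7, by distance in bp from the dominant TSS along the strand of the gene; thin lines are the whole cluster, filled blocks the interquantile region, thin vertical marks the dominant TSS, and labels give interquantile and whole width. The interquantile region was 2 to 4 bp in every row while the whole cluster ranged from 5 bp (Snhg12) to 119 bp (Snhg3), and the lines differed only at Snhg3.

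The side of the dominant TSS on which the interquantile region lay varied among the genes. In Gas5, Snhg5, Snhg6 and Snhg8 it ended at the dominant TSS, and in Snhg1 and Snhg12 it began there, in all 3 lines. In Snhg3 it ended at the dominant TSS in E14 and 1 bp after it in both clones.

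A narrow interquantile region within a wide cluster was uncommon among genes. Of the 6 host genes whose main cluster spanned 10 bp or more, all 6 had an interquantile width of up to 4 bp, a cutoff equal to their own largest width. This was true of 279 of 10682 genes with such clusters in E14 (2.61%), of 2.13% in A1 and of 2.31% in C7. With the window around the gene start, the count was 5 of 6 host genes, beside 2.59%, 2.08% and 2.28% of all genes. How many reads stand behind each cluster cannot be read from these positions.

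**Figure D2:**
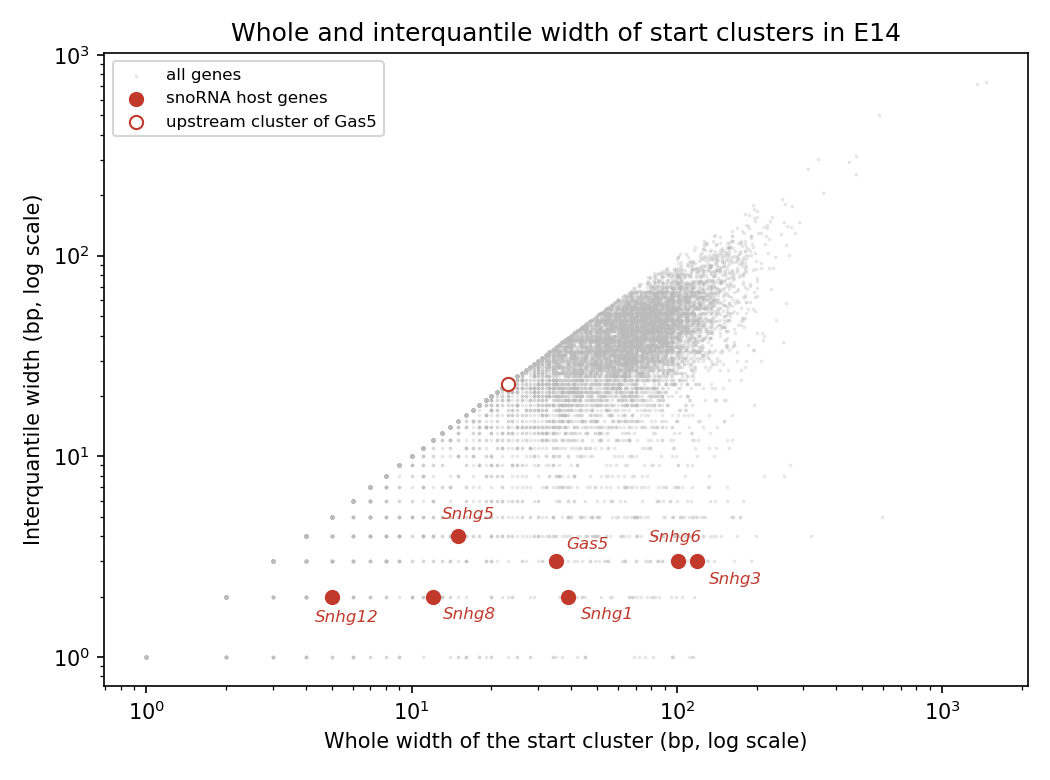
Whole width against interquantile width of the start cluster of each gene in E14, both in bp on log scales; grey points are all 11878 genes with a start cluster, filled red points the 7 host genes and the open red circle the upstream cluster of Gas5. The host genes lie at 2 to 4 bp on the vertical axis, below the bulk of genes of the same whole width, and the upstream Gas5 cluster lies on the upper edge, where both widths are 23 bp.

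Gas5 had a further start upstream of the one called main here by its width. This cluster ran from 161034599 to 161034621 with its dominant TSS at 161034621, 199 bp after the gene start, and its whole and interquantile widths were both 23 bp in E14, A1 and C7. Its sequence is shown for contrast with the main start, with the base at the dominant TSS in capitals.
Gas5 upstream, chr1:161034606-161034635, plus strand: cgacagcccggagccAaaggggcggaaggt
This start fell on an A after a C, the pyrimidine-purine step that was found at 82.9% of the readable dominant TSSs used to check the reading of positions. It had neither the run of pyrimidines nor TATA in the window, so the 2 Gas5 starts differed in all of the features counted here.

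The other 12 clusters of the host genes in each line lay inside the genes, 6 in Gas5, 4 in Snhg1 and 2 in Snhg3. Snhg5, Snhg6, Snhg8 and Snhg12 had their main start and no other cluster in any line. The inside clusters were small, with a median whole width of 2.5 bp in E14, 4.5 bp in A1 and 2.5 bp in C7, and none was wider than 22 bp. Of the 11 that could be read, 1 in E14, 1 in A1 and 2 in C7 began on the pyrimidine-purine step. The main starts also lacked this step, with 0 of the 6 that could be read in each line. Its share among inside clusters of other genes was not counted.

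In Gas5 the inside clusters lay at 979, 1155, 1397, 1429, 2091 and 2405 bp after the gene start in E14. The first 2 were in intron 1, the next 2 in intron 2, the fifth in intron 4 and the last in exon 6 of the transcript with the most exons, Gas5-224. Those at 1155 and 2091 bp were the widest, at 22 and 21 bp, and the cluster at 1397 bp spanned 8 bp, with its dominant TSS 31 bp before the snoRNA Gm22489. In Snhg1 they lay at 909 bp (intron 2, 10 bp wide), 1699 bp (intron 5, 2 bp wide, 18 bp after the snoRNA Gm22744), 2352 bp (the first base of intron 8, 2 bp wide) and 2476 bp (intron 8, 2 bp wide). The cluster at 909 bp was 9 bp before an annotated transcript start. In Snhg3 one lay at 152 bp in intron 1 (3 bp wide) and another at 1538 bp in exon 3 (7 bp wide).

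**Figure D3:**
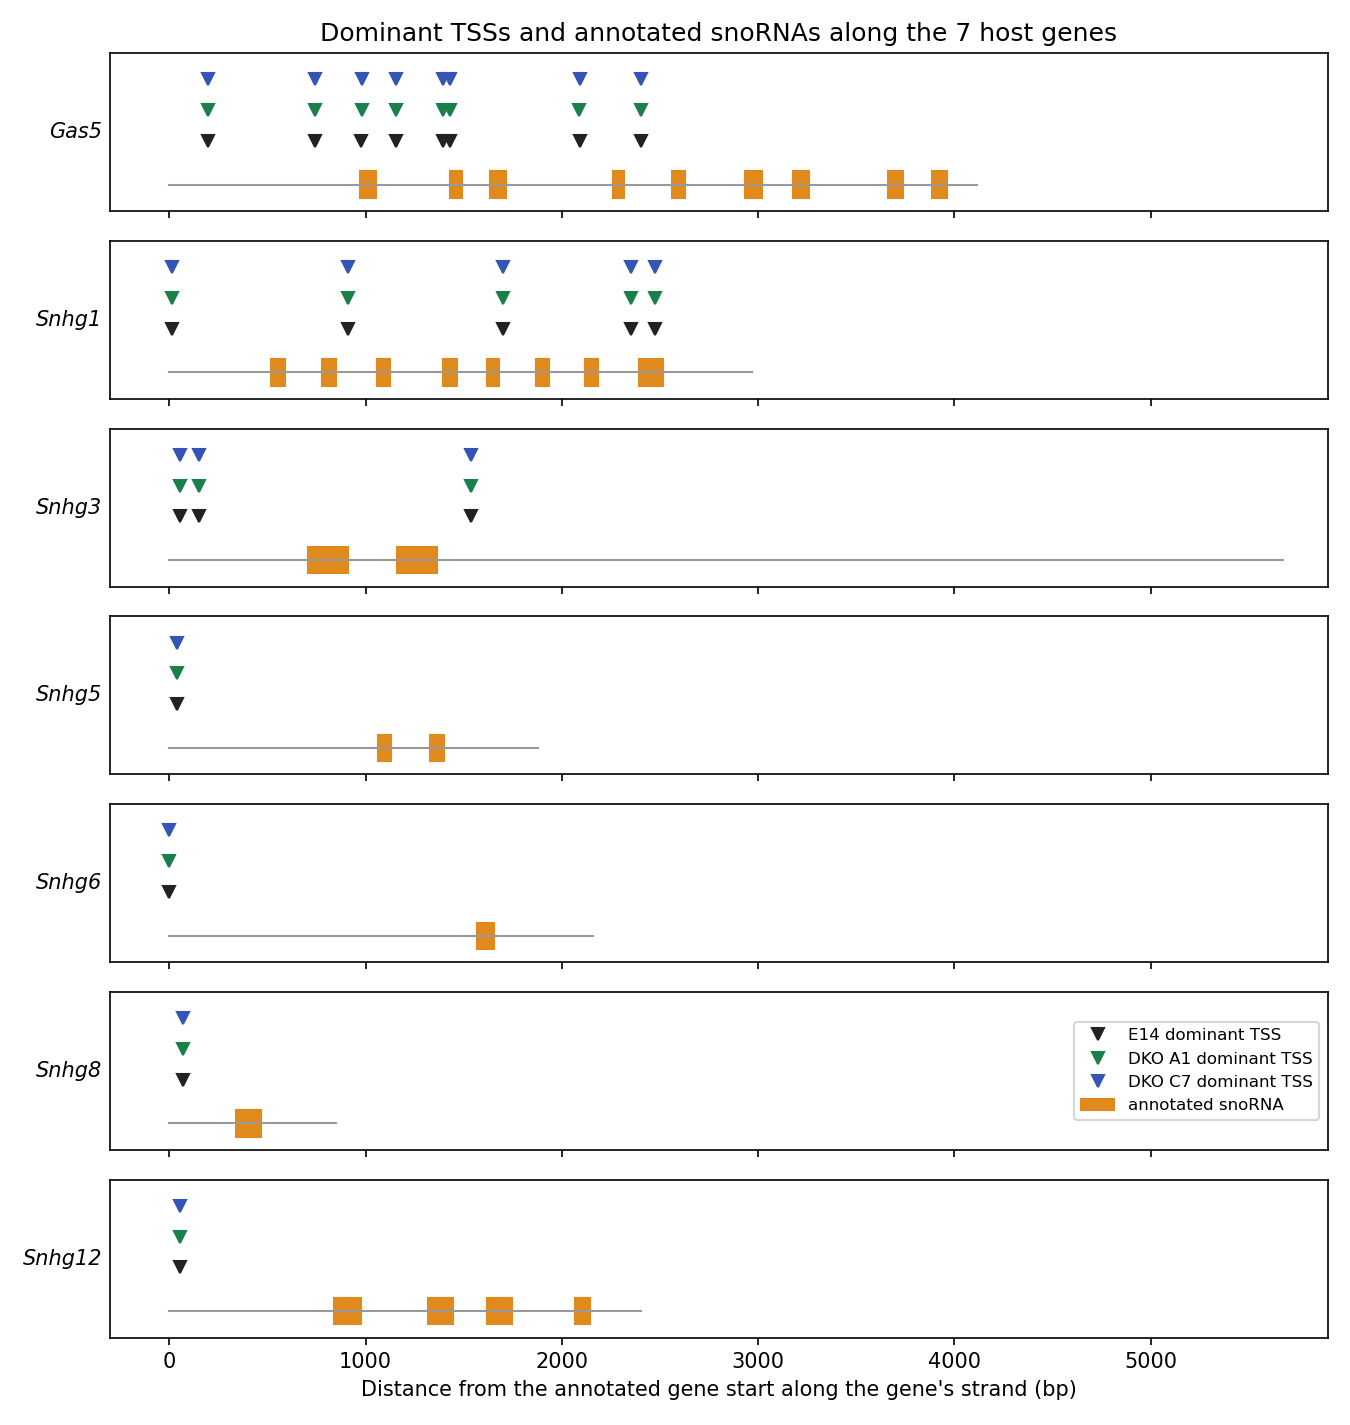
Dominant TSSs (triangles, one row per line) and annotated snoRNAs (orange boxes) along the 7 host genes, by distance in bp from the annotated gene start; grey lines show the length of each gene. Gas5 has 8 clusters, Snhg1 5, Snhg3 3 and the other 4 genes 1 each in every line, and triangles fall within a snoRNA at 2 places in Gas5 and 1 in Snhg1.

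Clusters coincided with 3 of the 27 annotated snoRNA loci of these genes in each line (11.1%). Over the 654 annotated snoRNA loci within a coding or long noncoding gene on its strand, these 27 included, this was so for 2.75% in E14, 2.75% in A1 and 2.91% in C7. Among the 363 loci inside genes that had a start cluster in E14 it was 18 (4.96%). With 3 loci in 2 genes, and the clusters of 1 gene not independent of each other, the shares are given side by side without a test.

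The bases at these places are shown because their position within the snoRNA differs, with the base at the E14 dominant TSS in capitals and 15 bases before it. The last sequence is the cluster at the splice site of Snhg1.
Gas5, in Gm26224, chr1:161035386-161035415, plus strand: cagcatgcgtgttcaTgctatgatgaaggc
Gas5, in Gm22489, chr1:161035836-161035865, plus strand: cataatgaccacaaaGcccatgatggtatg
Snhg1, in Snord22, chr19:8725936-8725965, plus strand: ggggctggctgggggAaaagaggaaacttt
Snhg1, first base of intron 8, chr19:8725812-8725841, plus strand: ccaggctaaaataagGtgagaaaacttaga

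In Gm26224, a snoRNA of 80 bp in intron 1 of Gas5, the dominant TSS was 7 bp after the annotated 5′ end in E14, 12 bp in A1 and 8 bp in C7. The cluster spanned 2 bp in E14 and C7 and 6 bp in A1. In Gm22489, of 62 bp in intron 2, the dominant TSS was 1 bp after the 5′ end in E14 and A1 and at the 5′ end itself in C7, and the cluster spanned 2 bp in each line. These 2 clusters lay at the front of their snoRNAs. A start within 2 bp of the 5′ end was found for 1 of the 27 host gene loci in each line, Gm22489. Of the 654 loci inside genes, 10 had such a start in E14, 9 in A1 and 10 in C7. By comparison, 18, 18 and 19 of the 654 had a dominant TSS in the body.

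In Snord22, of 126 bp in intron 8 of Snhg1, the dominant TSS was 85 bp after the 5′ end in E14 and C7 and 84 bp in A1, within the body of the snoRNA rather than at an end. No dominant TSS lay in any of the 6 loci named as H/ACA box snoRNAs (Snora73a, Snora73b, Snora24, Snora16a, Snora44 and Snora61), in Snord50a, Snord50b, Snord87 or Snord99, or in the other 7 loci of Gas5 and 7 of Snhg1. At the first base of an annotated intron, 14 of 32857 E14 clusters (0.0426%) had their dominant TSS, among them the one in Snhg1.

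The 3 lines had the same set of clusters at the host genes. Each of the 20 E14 clusters overlapped one in A1 and one in C7, where 0.709% of all E14 clusters had no partner in A1 and 0.749% none in C7. In the other direction every cluster of the clones overlapped one in E14, where 1.11% of all A1 clusters and 0.776% of all C7 clusters did not. The outer bounds were the same for 19 of 20 in A1 and 20 of 20 in C7. Over all clusters, bounds were also the same for 32285 of 32624 shared with A1 and 32393 of 32611 shared with C7, so presence and whole width say little about a difference between lines.

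All 7 main starts kept their dominant TSS in both clones. Among start clusters of all genes the dominant TSS moved in 18.8% of those shared with A1 and 16.7% of those shared with C7. The interquantile region kept the same positions in 6 of the 7, all but Snhg3, in each clone, beside 49.6% of start clusters in A1 and 51.6% in C7. Over all 20 clusters it was kept in 16 in each clone, beside 68.6% of all clusters in A1 and 70.4% in C7. None of the 7 changed its width by more than 1.5 times in either clone, where 3.6% of start clusters were wider and 2.15% narrower in A1, and 3.37% wider and 1.84% narrower in C7. These shares were not adjusted for width, and the regions of the 7 genes were narrower than those of most genes.

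Over all 20 clusters of the host genes the dominant TSS moved in 4 in A1 and in 2 in C7, beside 23.8% and 21.1% of all clusters. The 4 in A1 were the Gas5 clusters at Gm26224 (by 5 bp) and at 2091 bp (by 6 bp, to 2085 bp), the Snord22 cluster of Snhg1 (by 1 bp) and the intron 1 cluster of Snhg3 (by 2 bp). In C7 they were the Gas5 clusters at Gm26224 and Gm22489, by 1 bp each. Every shift was thus in an inside cluster, and the one place that moved in both clones was Gm26224.

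An interquantile width more than 1.5 times that of E14 was found for 1 of 20 clusters in A1, the one at Gm26224 (2 to 6 bp), beside 4.5% of all clusters, and for 0 of 20 in C7, beside 3.78%. A width more than 1.5 times smaller was found for 1 of 20 in A1 (2.6% of all clusters) and 2 of 20 in C7 (2.65%). In both clones this included the splice site cluster of Snhg1, from 2 to 1 bp, and in C7 also the Gas5 cluster at 1155 bp, from 22 to 4 bp.

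Other host genes shared these features in part. Of 15 further noncoding hosts listed, 12 were found by symbol and 9 had a cluster within 500 bp of the gene start in E14. Each clone also had 9, but only 8 hosts had such a cluster in all 3 lines. The 9 were therefore not the same genes in every line. The median interquantile width of the 9 was 5 bp in E14, 29 bp in A1 and 32 bp in C7. A width of up to 4 bp was found in 4 of 9 in E14 and 3 of 9 in each clone, where 8.72%, 8.35% and 8.38% of all genes did by the same rule. The median in each line was the value of a single gene, Epb41l4aos, which had 5 bp in E14, 29 bp in A1 and 32 bp in C7. The 3 nearest in width to the 7 genes were Zfas1 (3 bp in every line), Snhg9 (4 bp in every line) and Dancr (4 bp in E14, 6 bp in A1 and 4 bp in C7). Zfas1 and Dancr began with the bases CTTTC at the dominant TSS, as did Gas5, and Snhg9 with GCTTG. Of the 9 hosts with such a cluster in E14, 8 could be read, and 3 of them had a C at the dominant TSS (8.18% of all genes). The C with 4 more pyrimidines was present in 2 of 8 (3.77% of all genes) and TATA upstream in 2 of 8 (3.88%).

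Coding host genes, mostly ribosomal protein and translation factor genes, lay between the 7 genes and all genes in median width. Of 32 listed, 29 had a start cluster in E14, with a median interquantile width of 8 bp in E14, 10 bp in A1 and 12 bp in C7, and 12 of 29 had up to 4 bp in E14. A C was at the dominant TSS of 21 of 29 (72.4%), the C with 4 more pyrimidines at 19 of 29 (65.5%), and TATA upstream in 11 of 27. Among all other annotated genes with a snoRNA inside, 202 of 321 had a start cluster in E14, with a median of 31.5 bp, and the pyrimidine run was present in 46 of 192.

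The genes for the proteins that assemble with snoRNAs, among them Fbl, the methyltransferase of C/D box particles, and Dkc1, the pseudouridine synthase of H/ACA particles, had another kind of start. Of 14 listed, 13 had a start cluster in E14, with a median interquantile width of 45 bp in E14 and A1 and 43 bp in C7. None had a width of up to 10 bp, where 17.3% of all genes did in E14. A C was at the dominant TSS of 0 of 13, beside 8.18% of all genes in E14, a low share for so few genes. Nop56 and Dkc1 are on both this list and that of coding hosts.

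**Figure D4:**
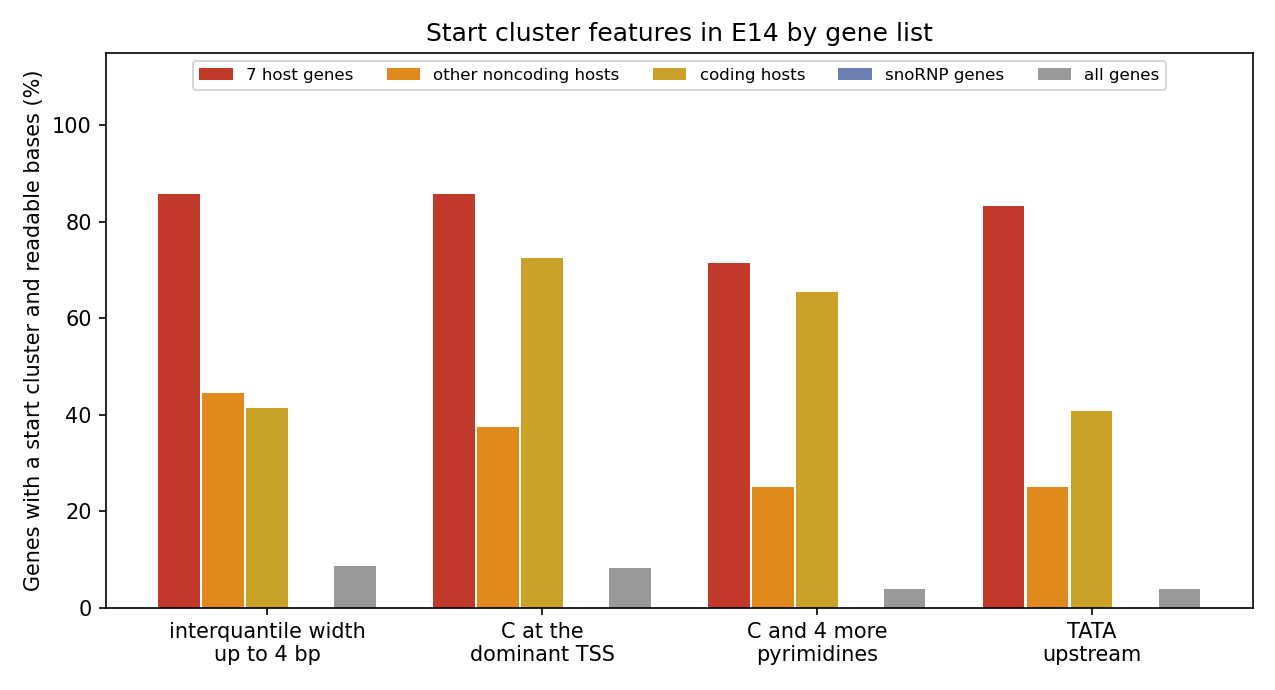
Share in percent of genes in E14 with each of 4 features of the cluster near the gene start (interquantile width up to 4 bp, C at the dominant TSS, C with 4 more pyrimidines, TATA 36 to 24 bases upstream), for the 7 host genes, 12 other noncoding hosts, 32 coding hosts, 14 snoRNP genes and all genes, over those with a cluster and readable bases. By this rule the 7 host genes stand at 85.7%, 85.7%, 71.4% and 83.3%, all genes at 8.72%, 8.18%, 3.77% and 3.88%, and the snoRNP genes at 0 throughout.

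Opposite starts lay within 1000 bp upstream of 3 of the 7 host genes in each line, beside 25.5% of all genes with a start cluster in E14, 25.5% in A1 and 25.6% in C7. At Gas5 the start of Zbtb37 on the other strand was 363 bp upstream of the main TSS, with an interquantile width of 26 bp in E14 and 30 bp in A1 and C7. The start of Slc3a2, the heavy chain of an amino acid transporter, was the nearest of 3 opposite clusters at Snhg1, 166 bp upstream, with 2 bp in E14 and 5 bp in both clones. At Snhg8 the nearer of 2 opposite clusters, with no annotated gene start, was 222 bp upstream in E14 and C7 and 228 bp in A1. None was found in that window at Snhg3, Snhg5, Snhg6 or Snhg12.

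The cell type was checked by the presence of start clusters. Of 10 stem cell marker genes, 9 had one in every line, Esrrb being the exception by this window, and of 16 markers of other cell types 3 did (Sox1, Col1a1 and Thy1). Pwwp2a had a start cluster in all 3 lines and Pwwp2b in none, which does not check the knockout, since a position shows no level and the deleted part is not given in the sources used here. In such bulk samples a cluster that is missing because few cells make the RNA and one missing because each cell makes little cannot be told apart.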

How the data were processed

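CAGE-seq libraries of nuclear RNA from E14 (3), clone A1 (2) and clone C7 (3) were sequenced. After demultiplexing, the authors aligned the reads to mm10 and retained those with a single location. Replicates were then pooled within each line, 5′ end counts were scaled to a power-law distribution, and CAGEr was used to call clusters. The submitters' processing notes name STAR 2.4.2a, SAMtools 1.3 and bedtools 2.17.0. The deposited score is 0 in every cluster, so the clusters hold no signal and the depth behind them could not be read from them. The signal tracks that the paper names were not used. The values used were the deposited positions of clusters, interquantile blocks and dominant TSSs, counted from 1.

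Clusters were assigned with Python 3.11.15 and NumPy 2.4.6 on GENCODE M21, and figures were drawn with Matplotlib 3.10.9. The start cluster of a gene was the widest with its dominant TSS within 500 bp of the gene start on the same strand. The rule with any transcript start and the search for TATA were chosen after the data were seen. The width cutoffs of 4 bp and 10 bp were not part of the plan. Clusters of different lines were matched when they shared a strand and 1 bp or more. Bases were read from RefSeq promoter windows and GENCODE transcripts, which covered the pyrimidine run for 94.4% and the TATA window for 85.8% of genes in E14. RefSeq snoRNA genes overlapped 26 of the 27 loci, all but Mir5117 in Gas5. Classes follow the symbols, which leave 13 loci unnamed. The scripts were tested on simulated data.

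All 7 genes are named with every cluster. Of the other noncoding hosts those nearest in width are named, and coding hosts, snoRNP genes and markers are given as counts. Epb41l4aos and the neighbouring genes were named after their values were seen. The members and lists were chosen with earlier results of these data known.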

Additional observations from a re-analysis of the deposited data

How the results depend on the processing

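Each line is 1 merged set of positions without signal, so no replicate could be left out, and counts carry no replicate error. No paired analysis was possible because the replicates of each line were merged before the deposited clusters were called. Of the sums, medians and counts recomputed under alternatives, 64 stayed within 1.5 times the main value and 12 did not. Keeping only clusters whose interquantile width reached 3 bp left 11 clusters at the host genes in E14, 12 in A1 and 11 in C7, in place of 20. Clusters with a narrower interquantile region are removed by construction, whatever their whole width. In each line these included the main starts of Snhg1, Snhg8 and Snhg12, and Snhg8 and Snhg12 were left without a cluster. The median whole width of the start clusters was 23 bp in each line, in place of an interquantile median of 3 bp, since the whole cluster includes the positions outside the quantiles. A run of 7 pyrimidines after the C was met by 1 gene in each line, in place of 5 with 4 by the same gene start window, as it asks for a longer run. Over all readable genes in E14, by the rule with any transcript start, this longer run was met by 1.41%. The motif TATAAA, an alternative chosen after seeing the data, was met by 3 genes in each line, in place of 6 with TATA. By the rule with any transcript start, chosen likewise, the Gas5 start had 3 bp, in place of 23 bp by the gene start window, because another cluster is taken, and a window of 1000 bp gave the same 3 bp. With the cluster nearest to the gene start in place of the widest, again 0 of the 7 dominant TSSs moved in either clone.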

Other observations

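The 35 genes that had both the pyrimidine run and TATA upstream in E14 were mostly genes of translation. Beside 5 of the 7 snoRNA host genes they comprised 15 cytosolic ribosomal protein genes (among them Rps2, Rps3, Rps20, Rpl4 and Rpl10, which are on the list of coding hosts), the translation factors Eef1a1, Eef1b2, Eef2 and Eif4b, and 11 others, including Tpt1, Zfas1, Nap1l1, Hsp90ab1 and Rcc1, whose start is that of Snhg3. Without the 5 host genes, but with the Snhg3 start counted for Rcc1 and with the other listed hosts kept, the remaining 30 had a median interquantile width of 3.5 bp, and 17 of them had up to 4 bp. Over the 428 genes with the pyrimidine run, with or without TATA, from which only the 7 genes were removed, the median was 25 bp and 66 had up to 4 bp. This grouping was made after the data were seen and was not tested.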
